A study of Homo sapiens with 2 samples.

Results

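ATP-dependent chromatin remodelling genes were described in HL-60 cells, a line established from a human promyelocytic leukaemia. They were chosen by a rule on symbols, with earlier results of these data known. The symbols were the SMARC, CHD, INO80 and ARID1 to ARID5 names, ACTL6A and ACTL6B, and the DPF and BAZ genes. PBRM1, PHF10, SS18, SS18L1, BPTF, ATRX, EP400, SRCAP, RUVBL1 and RUVBL2 were the others. The rule found 53 genes on 56 probe sets with 1 gene symbol each, of 18404 named genes on 32321 probe sets. Total RNA of the wild-type line, grown in DMEM with serum, was hybridised to 2 Affymetrix Human Gene 1.0 ST arrays, labelled replicates 1 and 2. The cells carried no allele or agent that the labels name, and both arrays form 1 group, so no treatment or genotype was compared and no p-values exist. Nothing in the labels tells whether they stem from separate cultures, and the spread between them may be technical.

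Remodelling enzymes spend ATP to slide, evict or exchange nucleosomes. Their ATPases fall into the SWI/SNF, ISWI, CHD and INO80 types, and most work in multi-subunit complexes. The SWI/SNF complexes, called BAF and PBAF in mammals, are assembled from families of alternative subunits, and in differentiating neurons several subunits are replaced by neural paralogues. In that switch ACTL6B replaces ACTL6A, DPF1 and DPF3 replace PHF10 and DPF2, and SS18L1 replaces SS18. SMARCA1 and CHD5 are the paralogues of SMARCA5 and of CHD3 and CHD4 that are known chiefly from neural tissue. In blood, BAF subunits are known for roles in stem cell maintenance and in myeloid differentiation.

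Signals are the authors' RMA values on the log2 scale, and each gene's error is the SD over both arrays (n = 2). Precision is limited by having 2 arrays: the array difference of the 53 genes had an SD of 0.39, as did that of all named genes. The signal of a probe set also depends on its probes, so each gene was set against background thresholds and not against other genes. The olfactory threshold was the 95th percentile of 359 olfactory receptor genes, sensory receptors not expected in a myeloid line, and lay at 2.98 on replicate 1 and 2.88 on replicate 2. The second, stricter threshold was the same percentile of 115 keratin-associated protein, bitter taste receptor and beta-defensin genes, at 5.41 on replicate 1 and 5.23 on replicate 2. A gene was called above a threshold only when it exceeded it on both arrays. Of 10 granulocyte precursor markers all 10 were above the olfactory threshold, against 55.8% of all named genes, and 4 were above the second. MYB (9.41 ± 0.17) and MPO (7.84 ± 0.52) were among the 4, while AZU1 (3.10 ± 0.13) passed the olfactory threshold narrowly. Of 14 neuron markers 1 was above the olfactory threshold, SYN1 (3.08 ± 0.07), the others lying below it on at least 1 array. Of 6 T and NK cell markers 2 were above it, CD5 and NKG7, and of 3 erythroid markers 1 was, KLF1.

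The stretches of DNA around the starts of paralogues with contrasting signals are shown first, each from 250 bases before to 50 bases after the RefSeq start in GRCh38.p14. CpG dinucleotides, the sites that DNA methyltransferases modify, are in capitals. The neural SMARCA1 window lies at chrX:129523441-129523740 (minus strand) and the window of its ubiquitous counterpart SMARCA5 at chr4:143513452-143513751 (plus strand). The neural DPF1 window lies at chr19:38229646-38229945 (minus strand) and the DPF2 window at chr11:65333602-65333901 (plus strand). CHD2, at chr15:92900074-92900373 (plus strand), is shown because it had the lowest CpG ratio of any member, averaged over its windows, beside a signal above both thresholds.
SMARCA1: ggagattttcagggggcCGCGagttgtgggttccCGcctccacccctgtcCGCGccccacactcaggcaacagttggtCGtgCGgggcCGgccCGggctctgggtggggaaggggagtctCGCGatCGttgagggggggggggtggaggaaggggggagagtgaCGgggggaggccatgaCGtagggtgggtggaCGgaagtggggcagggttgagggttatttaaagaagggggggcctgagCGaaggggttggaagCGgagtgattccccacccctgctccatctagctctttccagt
SMARCA5: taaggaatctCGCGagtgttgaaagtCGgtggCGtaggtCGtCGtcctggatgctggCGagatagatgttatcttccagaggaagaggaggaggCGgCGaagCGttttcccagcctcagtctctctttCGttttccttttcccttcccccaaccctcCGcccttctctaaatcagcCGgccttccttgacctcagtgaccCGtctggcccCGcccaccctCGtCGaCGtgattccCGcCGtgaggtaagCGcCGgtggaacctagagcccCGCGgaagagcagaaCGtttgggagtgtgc
DPF1: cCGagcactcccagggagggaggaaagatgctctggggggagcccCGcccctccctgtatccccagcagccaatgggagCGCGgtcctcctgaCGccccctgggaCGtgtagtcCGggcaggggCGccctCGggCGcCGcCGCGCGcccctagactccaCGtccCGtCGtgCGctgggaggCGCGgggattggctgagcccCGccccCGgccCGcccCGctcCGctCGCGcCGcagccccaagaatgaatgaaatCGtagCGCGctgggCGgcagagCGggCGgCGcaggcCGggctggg
DPF2: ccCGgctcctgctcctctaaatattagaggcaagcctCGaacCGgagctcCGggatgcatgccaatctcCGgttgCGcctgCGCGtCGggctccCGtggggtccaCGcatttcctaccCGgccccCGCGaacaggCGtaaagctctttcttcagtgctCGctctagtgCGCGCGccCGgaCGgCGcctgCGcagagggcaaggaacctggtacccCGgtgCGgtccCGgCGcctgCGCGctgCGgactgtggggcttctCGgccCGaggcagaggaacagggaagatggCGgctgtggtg
CHD2: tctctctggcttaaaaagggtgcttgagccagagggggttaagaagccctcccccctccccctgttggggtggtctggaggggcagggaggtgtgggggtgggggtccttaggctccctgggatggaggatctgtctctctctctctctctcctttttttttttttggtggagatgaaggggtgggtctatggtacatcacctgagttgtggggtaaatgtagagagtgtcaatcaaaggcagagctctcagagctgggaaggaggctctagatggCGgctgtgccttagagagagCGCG

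Most remodelling genes were above background, many of them by either measure. Of the 53 genes, 48 (90.6%) were above the olfactory threshold, against 55.8% of all named genes, and 31 (58.5%) were above the second threshold, against 17.0% of all named genes. Their median signal was 6.04 on replicate 1 and 5.94 on replicate 2, beside medians of 3.35 and 3.34 over all named genes. The 5 genes not above the olfactory threshold were the neural paralogues DPF1, DPF3, SMARCA1 and CHD5, and ARID5B, a DNA-binding factor. DPF1 and ARID5B passed it on replicate 2 only, so 50 genes were above it without replicate 1.

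**Figure D1:**
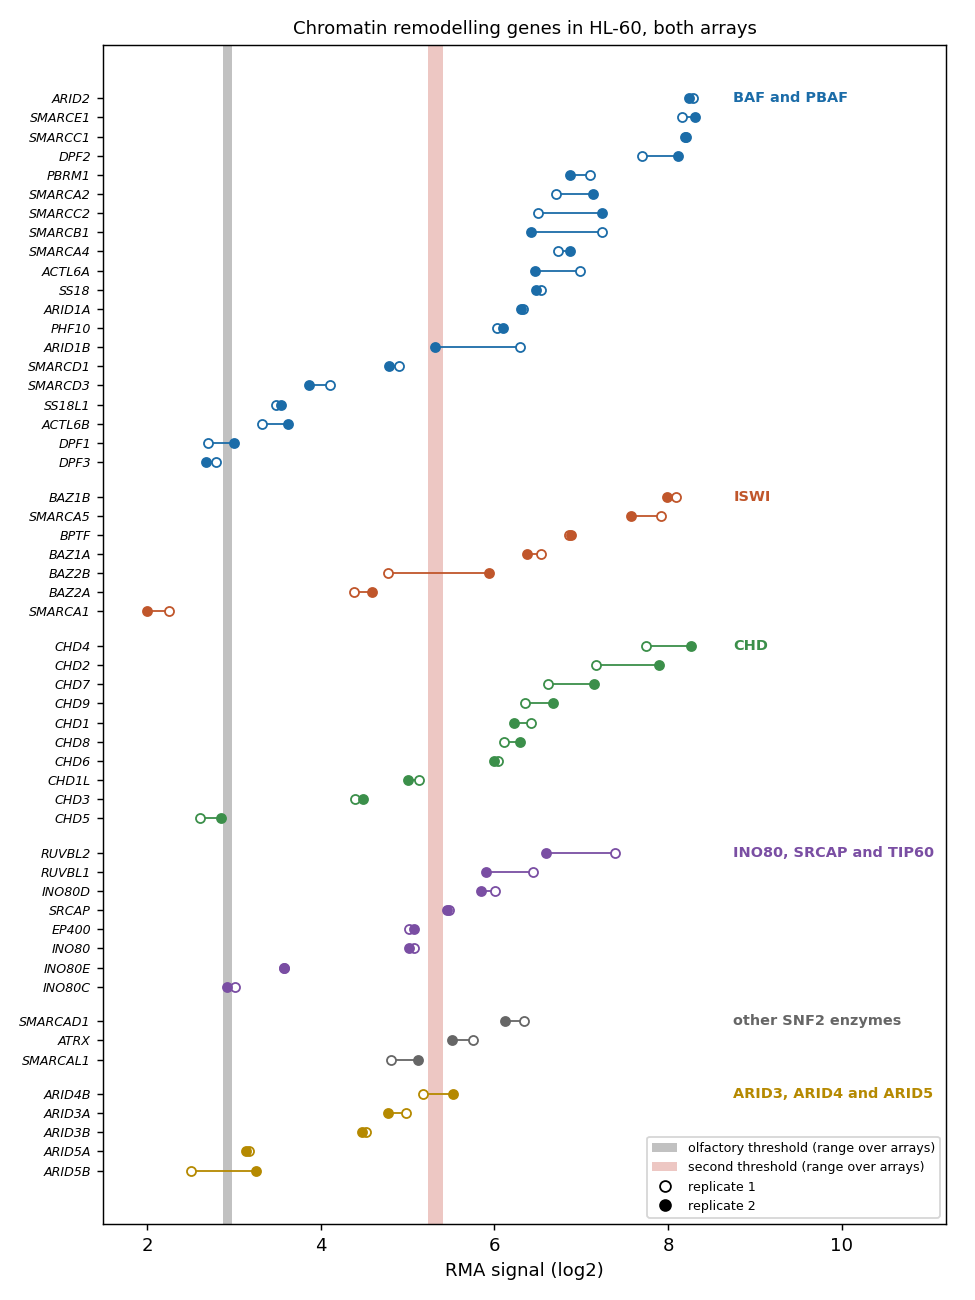
RMA signal (log2, horizontal axis) of the 53 genes on replicate 1 (open circles) and replicate 2 (filled circles), by complex and ordered by mean; vertical bands span each background threshold over the arrays. Most genes lie right of both bands, while SMARCA1, DPF3 and CHD5 lie left of the olfactory band on both arrays.

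Neural paralogues were at or near background while all of their ubiquitous counterparts were above it. Of 6 neural paralogues in 5 families, 2 (33.3%) exceeded the olfactory threshold and 0 the second. Of the 7 ubiquitous members of these families, 7 exceeded the olfactory threshold and 6 the second. The shares of all named genes were 55.8% and 17.0%, so most named genes were not above the second threshold either. With the 99th percentile of the olfactory receptors as threshold, the counts were 0 neural and 7 ubiquitous, and without replicate 1, at the 95th percentile, they were 3 and 7. In 3 of the 5 families every ubiquitous member was above the olfactory threshold and no neural one was so on both arrays: the BAF45 subunits, the ISWI ATPases and the CHD3 to CHD5 group. These counts are descriptions, since paralogues are different probe sets and not replicates.

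ACTL6B, the actin-related BAF53 subunit of neurons, read 3.32 on replicate 1 and 3.62 on replicate 2. Its counterpart ACTL6A, found in most dividing cells, read 6.98 and 6.47 on the same arrays. ACTL6B was thus above the olfactory threshold only, and ACTL6A above both.

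Among the BAF45 subunits, which carry PHD fingers that read histone tails, DPF1 read 2.71 on replicate 1 and 3.01 on replicate 2. DPF3 read 2.80 and 2.68, below the olfactory threshold on both arrays. DPF2, the ubiquitous member of the canonical BAF complex, read 7.69 and 8.11, and PHF10, the PBAF member, 6.03 and 6.10. Both ubiquitous genes were above both thresholds on each array. RefSeq names 2 pseudogenes of PHF10, 7 of SMARCE1 and 1 each of BPTF, EP400, RUVBL2 and ARID3B, and probes that match such copies could add to the signals of these 6 genes.

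SS18L1, also called CREST and known from neuronal dendrite growth, read 3.49 on replicate 1 and 3.54 on replicate 2, above the olfactory threshold only. SS18, the gene fused to SSX in synovial sarcoma, read 6.53 and 6.48, above both.

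Of the ISWI ATPases 1 was below background. SMARCA1, or SNF2L, read 2.26 on replicate 1 and 2.00 on replicate 2, below the olfactory threshold on both arrays. SMARCA5, or SNF2H, the main ISWI ATPase of proliferating cells, read 7.92 and 7.57.

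CHD5, a neural NuRD ATPase studied as a tumour suppressor, read 2.61 on replicate 1 and 2.85 on replicate 2 and was not above background. Relative to the olfactory threshold it lay at -0.37 on replicate 1 but at only -0.03 on replicate 2. CHD4, the main NuRD ATPase, read 7.75 and 8.27. CHD3, its close relative, read 4.40 and 4.49, above the olfactory threshold only, which made it the 1 ubiquitous paralogue that did not pass the second.

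**Figure D2:**
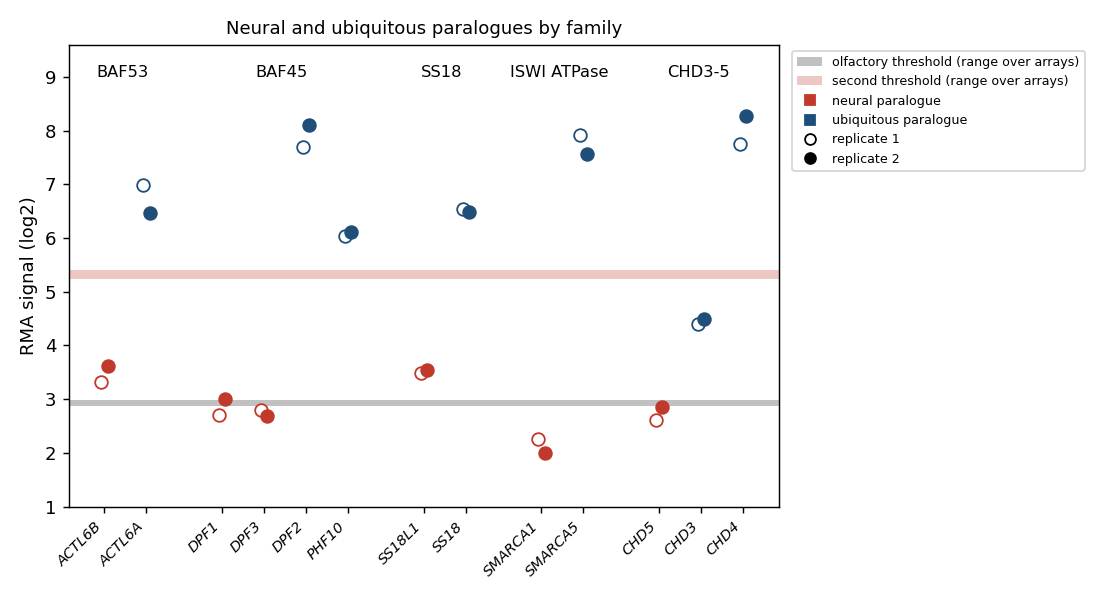
RMA signal (log2, vertical axis) of neural (red) and ubiquitous (blue) paralogues in 5 families, with replicate 1 as open and replicate 2 as filled circles; horizontal bands span the thresholds. The neural genes lie between 2.00 and 3.62 and the ubiquitous ones between 4.40 and 8.27.

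The BAF60 family was left out of these counts because SMARCD3 is shared by heart, muscle and neural tissue. SMARCD3 read 3.99 ± 0.16 and SMARCD1, the widely expressed member, 4.84 ± 0.08. Both were above the olfactory threshold only. With SMARCD3 counted as neural and SMARCD1 as ubiquitous, 3 neural and 8 ubiquitous genes were above the olfactory threshold. SMARCD2, the member known for its role in neutrophil granule formation, shares its probe set with another symbol and is not among the 53 genes.

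Most subunits of the BAF and PBAF complexes were above both thresholds. Of the 20 genes in this group, 18 exceeded the olfactory threshold and 14 the second, beside 55.8% and 17.0% of all named genes. The alternative ATPases SMARCA2, or BRM, and SMARCA4, or BRG1, were both present above the second threshold: SMARCA2 read 6.71 and 7.14, and SMARCA4 read 6.73 and 6.87 on replicates 1 and 2. The scaffold subunits SMARCC1 (8.21 and 8.20) and SMARCC2 (6.50 and 7.24) and the HMG-box subunit SMARCE1 (8.16 and 8.31) were too. SMARCB1, the subunit lost in rhabdoid tumours, read 7.23 on replicate 1 and 6.42 on replicate 2.

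Subunits that tell PBAF from canonical BAF were above both thresholds for either complex. Of those of PBAF, ARID2 read 8.29 and 8.24, and the bromodomain protein PBRM1 read 7.11 and 6.87. Of those of canonical BAF, ARID1A read 6.33 and 6.31. ARID1B, its paralogue, read 6.29 on replicate 1 and 5.32 on replicate 2, only just above the second threshold on replicate 2.

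The BAZ genes and BPTF, which encode accessory subunits of ISWI complexes, were above the olfactory threshold. With SMARCA5, 6 of 7 genes of this group were above it and 4 above the second, beside 55.8% and 17.0% of all named genes. BAZ1B, the WSTF subunit deleted in Williams syndrome, read 8.09 and 7.99. BPTF, the histone-reading subunit of NURF, read 6.86 and 6.88, and BAZ1A, the ACF1 subunit, 6.53 and 6.37. BAZ2A, which as TIP5 silences ribosomal RNA genes in the NoRC complex, read 4.38 and 4.59, above the olfactory threshold only. BAZ2B read 4.77 on replicate 1 and 5.94 on replicate 2 and passed the second threshold on replicate 2 alone.

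Of the 10 CHD genes, 9 exceeded the olfactory threshold and 7 the second, beside 55.8% and 17.0% of all named genes. CHD1, which binds methylated histone H3 lysine 4 at active genes, read 6.42 and 6.22, and its relative CHD2 read 7.17 and 7.90. The larger CHD6 to CHD9 proteins form a subfamily of their own. CHD7, mutated in CHARGE syndrome, read 6.61 and 7.15, CHD8 6.11 and 6.30, CHD9 6.36 and 6.67, and CHD6 6.04 and 5.99. All 4 were above the second threshold. CHD1L, or ALC1, which acts in the DNA damage response, read 5.13 and 5.00, above the olfactory threshold only.

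All 8 INO80, SRCAP and TIP60 group genes exceeded the olfactory threshold and 4 the second, beside 55.8% and 17.0% of all named genes. The paired AAA ATPases RUVBL1 (6.44 and 5.91) and RUVBL2 (7.39 and 6.60), shared by all of these complexes, were among the 4, with INO80D (5.93 ± 0.11). The scaffold ATPase SRCAP, which deposits the histone variant H2A.Z, read 5.48 and 5.45 and passed the second threshold narrowly. INO80 (5.07 and 5.01) and EP400 (5.02 and 5.07), the ATPases of the other complexes, were below it. INO80E read 3.58 on both arrays. Exactly equal values were deposited for 5.23% of all genes, so its SD of 0 does not mean a smaller error. INO80C, at 3.02 and 2.92, exceeded the olfactory threshold by less than 0.05 on each array.

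Of the other SNF2-type enzymes, SMARCAD1, which acts at heterochromatin during replication, read 6.34 and 6.12. SMARCAL1, an annealing helicase of stalled replication forks, read 4.81 and 5.12. ATRX, which with DAXX deposits histone H3.3, read 5.63 ± 0.18 as the mean of 2 probe sets that differed by 1.58. One read 6.24 and 6.60, above both thresholds, and the other 5.27 and 4.41, above the olfactory one only, so the call of ATRX above the second threshold rests on the first.

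The 5 ARID3, ARID4 and ARID5 genes carry the same DNA-binding domain as ARID1A but are not subunits of a remodelling ATPase complex. Of these, 4 exceeded the olfactory threshold and 0 the second, beside 55.8% and 17.0% of all named genes. Without these 5 genes, 44 of 48 members exceeded the olfactory threshold. ARID4B, a subunit of a histone deacetylase complex, read 5.35 ± 0.24, and ARID3A read 4.88 ± 0.15. ARID3B read 4.50 ± 0.03, but its 2 probe sets, at 5.49 ± 0.11 and 3.52 ± 0.18, lay 1.97 apart. Of the ARID5A probe sets, 1 read 3.60 and 3.22 and the other 2.74 and 3.06, which was below the threshold on replicate 1. ARID5B read 2.50 on replicate 1 and 3.26 on replicate 2.

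Taken by role, 18 of 20 SNF2-type ATPases and 30 of 33 other members were above the olfactory threshold. The AAA ATPases RUVBL1 and RUVBL2 were counted with the other members. The second threshold was passed by 13 SNF2-type ATPases and by 18 other members. The 2 SNF2-type ATPases below background were both neural paralogues, SMARCA1 and CHD5.

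Most partner subunits of the same complexes outside the symbol rule were also above the olfactory threshold. Of 45 measured partners, 43 exceeded it and 22 (48.9%) the second, beside 55.8% and 17.0% of all named genes. Of the 53 genes of the rule, 58.5% exceeded the second. The NuRD deacetylases HDAC2 (8.70 ± 0.37) and HDAC1 (8.31 ± 0.26) were above both. CECR2 (2.61 ± 0.09), an ISWI partner best known from mouse neural tube development, and ZNHIT1 (2.92 ± 0.09), an SRCAP subunit, were not above the threshold on both arrays, although ZNHIT1 passed on replicate 2. Of 10 further SNF2-type ATPases, 10 exceeded the olfactory threshold and 3 the second, and HELLS, on which DNA methylation of repeats depends in mouse, read 5.26 ± 0.34. DAXX, the partner of ATRX, read 5.73 on replicate 1 and 3.90 on replicate 2 as the mean of 2 probe sets.

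Differences of more than 1 between the arrays were about as rare among these genes as among all named genes. The difference, replicate 2 minus replicate 1, exceeded 1 on the log2 scale for 1 of 53 genes, BAZ2B (1.16), beside 1.96% of all named genes. It exceeded 0.5 in either direction for 11 of the 53 genes and for 3228 of the 18404 named genes. Its median over the 53 genes was -0.03, beside -0.04 over all named genes. Of the 53, 23 were higher on replicate 2, 29 were higher on replicate 1 and 1 was equal, and 42.1% of all named genes were higher on replicate 2. The next largest differences were those of ARID1B (-0.98), SMARCB1 (-0.81), RUVBL2 (-0.79) and ARID5B (0.76). Members of the BAF and PBAF group did not share a direction: SMARCC2 was higher on replicate 2 by 0.75 while SMARCB1 and ARID1B were lower there.

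By group, 7 of 10 CHD genes were higher on replicate 2, beside 42.1% of all named genes, with a median difference of 0.22. In the INO80, SRCAP and TIP60 group 1 of 8 genes was higher there, 6 were lower and 1 was equal, with a median of -0.08. CHD2 (0.72), CHD7 (0.53) and CHD4 (0.52) had the largest differences among CHD genes. RUVBL1 (-0.54) followed RUVBL2 in the other group. Each array is 1 sample, so these differences have no replicate check. Of the 10 granulocyte markers, 5 were higher on replicate 2 and 5 on replicate 1, with a median difference of -0.04. The range was from -1.75 (CTSG) to 0.41 (CEBPA). CTSG, PRTN3 (-1.48) and MS4A3 (-1.10), 3 of the 10, were lower on replicate 2 by more than 1, and 0 were higher by that much. Among 18404 named genes, 162 were lower and 199 higher by more than 1. The SD of the difference was 0.80 for the markers, beside 0.39 for all named genes. The part of these markers in the differences above was not tested.

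**Figure D3:**
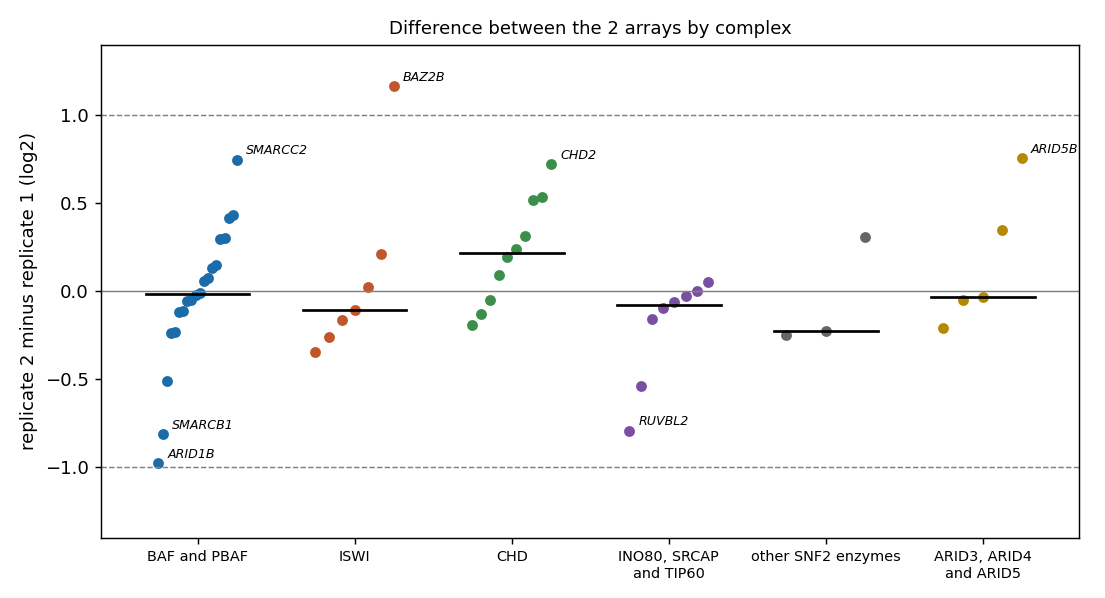
Difference of the RMA signal between the arrays (replicate 2 minus replicate 1, log2, vertical axis) for the 53 genes by complex; black bars are group medians and dashed lines mark a difference of 1 in either direction. BAZ2B (1.16) alone passes a dashed line, and genes that differ by more than 0.7 are named.

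The median CpG content at the starts of members above background lay close to that of all genes above background. RefSeq windows of 300 bases were matched for 41 of the 53 genes, with 1.61 windows per gene on average, and a gene's windows were averaged. Expected CpG is the product of the C and G counts over the window length. The ratio of observed to expected CpG had a median of 0.81 over the 37 members above the olfactory threshold, beside 0.83 over 8262 named genes above it. It was 0.69 over the 4 members with a window that were not above the threshold, beside 0.52 over 5966 named genes not above it. The starts of neural paralogues below background were not free of CpG: DPF1, below background on replicate 1, held 36 CpG in its window with a ratio of 0.85, and SMARCA1 held 17 with a ratio of 0.59. In comparison, DPF2 held 33 with a ratio of 0.96, and SMARCA5 held 25 with a ratio of 0.96. DNA methylation was not measured in these samples.

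A low CpG ratio, below 0.6, was found for 7 of the 41 members, or 17.1%, and for 34.5% of named genes with a window. Among genes above the olfactory threshold the shares were 16.2% of members and 18.8% of named genes. Of these 7 members, 6 were above the olfactory threshold: CHD2, CHD3, INO80D, BAZ2A, SMARCA2 and CHD9. For SMARCA2 and CHD9 the low ratio is an average over 4 windows each. Single windows ran from 0.23 to 0.90 for SMARCA2 and from 0.24 to 0.90 for CHD9. At their first listed starts the ratios were 0.90 for SMARCA2 and 0.78 for CHD9, so these starts were not low in CpG. The window of CHD2 held 3 CpG with a ratio of 0.14, as the sequence above shows. Over all named genes, 31.6% of those with a ratio below 0.6 and 72.0% of the others were above the olfactory threshold. A gene can use other starts than those listed, and these windows are descriptions of the reference only.

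**Figure D4:**
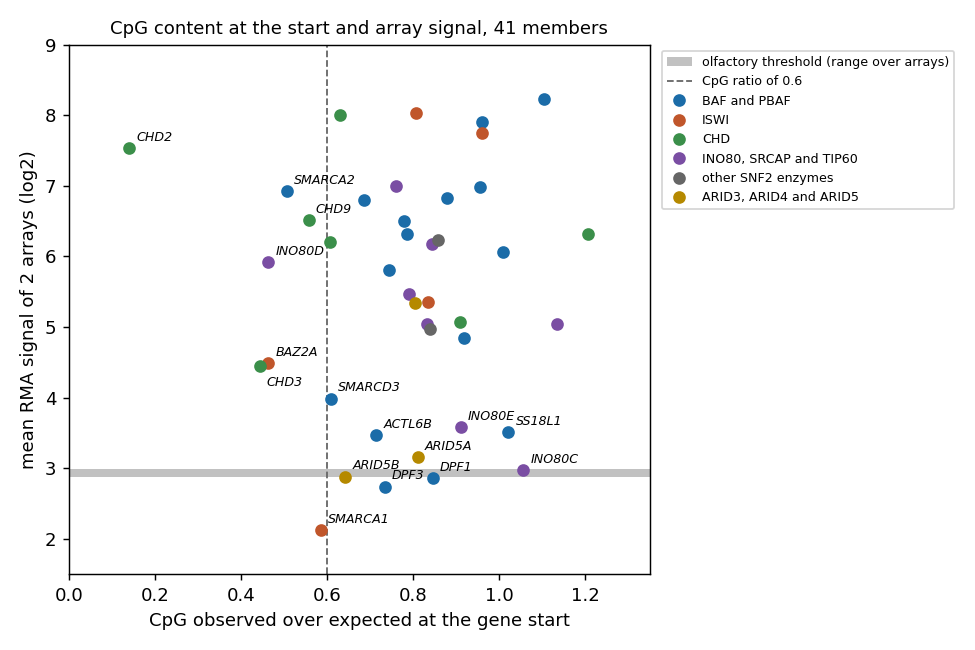
Mean RMA signal (log2, vertical axis) against the ratio of observed to expected CpG (horizontal axis) for 41 members, coloured by complex. The ratio is the average over all listed starts of a gene. The dashed line marks a ratio of 0.6 and the band the olfactory threshold. SMARCA1, DPF3, DPF1 and ARID5B lie near or below the band at ratios from 0.59 to 0.85, and CHD2 stands at 0.14.

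Sequence motifs were searched on both strands of the same windows. The Sp1 motif GGGCGG was present in 33 of 41 members (80.5%) and in 65.9% of named genes, but among genes above the olfactory threshold the shares were 83.8% of members and 76.4% of named genes. The CCAAT motif was present in 18 members (43.9%) and in 42.2% of named genes. The ETS motif CCGGAAGT was present in 2 members (4.88%), in 7.14% of named genes and in 10.5% of those above the threshold. The YY1 core AAGATGGC was present in 3 members (7.32%), in 4.86% of named genes and in 7.06% of those above the threshold. The TATA motif TATAAA was present in 3 members (7.32%), in 11.9% of named genes and in 8.39% of those above the threshold. The NRF1 core GCATGCGC was in 0 members, in 4.86% of named genes and in 6.49% of those above the threshold. No motif searched contains another. The members had slightly more windows per gene than named genes in general (1.61 against 1.41), which adds to the chance of a match.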

How the data were processed

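Total RNA of 2 HL-60 samples was amplified, biotin-labelled and hybridised to Affymetrix Human Gene 1.0 ST arrays, per the labels' protocols. The authors deposited 1 log2 signal for each probe set, computed with RMA according to the submitters' processing notes. The program version is not given in the sources used here. Neither is the log base; base 2 is that of RMA itself. RMA equalises the arrays' distributions and would hide a change in total RNA. Scanner files were not used here.

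Probe sets with 1 symbol in the platform annotation (19158 of 32321) were named, 19128 of them found by Entrez ID in RefSeq (GRCh38.p14), and several probe sets of a gene were averaged. Thresholds were percentiles of gene families on each array. The members and lists were chosen with earlier results of these data known. Every member is named. Partner genes named are the 2 with the highest signal values, those not above the threshold, and HELLS and DAXX, chosen after their values were seen. The threshold calls were tested on simulated data: of 200 genes below background raised on both arrays, 87 were called after a rise of 1 (log2), which put the means of 120 above the threshold, and 196 of 200 after a rise of 2. Motifs were chosen during the work. Protein sequences of paralogues were not used here. Tools were Python 3.11.15, numpy 2.4.6, pandas 2.3.3, statsmodels 0.14.6 and matplotlib 3.10.9.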

Additional observations from a re-analysis of the deposited data

Results flagged for a closer look

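Signal above the olfactory threshold on both arrays was also found in 3 probe sets outside the 53 genes, because each is listed for a symbol that the rule covers together with another symbol. The probe set listed for both PTCRA and SMARCD2 averaged 5.05 (5.07 on replicate 1 and 5.02 on replicate 2), below the second threshold. The probe set listed for both INO80B-WBP1 and INO80B averaged 4.76 (4.74 and 4.79), also below the second threshold. The probe set listed for both ETV6 and INO80D averaged 6.61 ± 0.55, above both thresholds. None of these signals can be given to a single gene.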

How the results depend on the processing

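No paired analysis was possible because both samples are of the same group. Of 55 values recomputed under 11 alternatives, 50 stayed within set limits. The limit was 1.5 times for counts and 0.15, the median of the members' SDs over both arrays, for the median signal. For the median difference it was 0.39, the SD of the difference across the 53 genes. That limit is wide beside the median difference of -0.03, so it could hardly be passed. With the 99th percentile of the olfactory receptors as threshold, and with the second background set, 0 neural paralogues in place of 2 were above it, and with the second set 22 partner subunits in place of 43. At the 99th percentile ACTL6B, SS18L1, ARID5A, INO80C and INO80E were no longer above it, which left 43 of 53 members. The median signal of members, 6.02 as the mean of the arrays, was 6.19 with genes above the threshold only and 6.19 without the ARID3, ARID4 and ARID5 genes, since fewer low genes were included. Quantile normalization, loess, the highest probe set per gene, updated symbols and each array alone moved no count by over 1.5 times. Updated symbols gave the same 53 members. The background correction, which needs scanner files, was not run.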
